A study of Mus musculus with 12 samples.

Results

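Described here are 54 genes of S phase and DNA replication in J774.1, a macrophage-like cell line from BALB/c mice. They were chosen by name, from a list of genes that license, fire, copy or supply the replication fork or regulate entry into S phase. The choice was made with earlier results of these data known. All 54 were found among the 25683 genes of the deposited tables, and all 54 were among the 11808 genes that passed the filter on low counts. RNA was sequenced from 6 groups of 2 libraries each, 12 in all. The groups were Rictor-KO cells with isorhamnetin, Rictor-KO cells with DMSO, GATA3-KO cells with isorhamnetin, GATA3-KO cells with DMSO, WT cells with isorhamnetin, and WT cells with DMSO. Isorhamnetin, a methylated plant flavonol, was given at 10 µM, and both treatments lasted 6 h. Rictor is a core component that mTORC2, a kinase complex of growth signalling, needs to assemble, and GATA3 is a transcription factor best known from T cells. The labels name a single line per knockout and do not say whether replicates were separate cultures. The knockout and the history of its line therefore cannot be told apart, and p-values measure the spread between libraries, which may be technical.

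Replication origins are licensed in G1, when the origin recognition complex, Cdc6 and Cdt1 load the MCM2-7 helicase onto DNA. In S phase the kinase Cdc7 with Dbf4 and the cyclin E and cyclin A kinases turn loaded helicases into active forks, where primase and the replicative polymerases copy both strands behind the helicase. Most of these genes are known targets of E2F transcription factors, which RB family proteins hold in check until cyclin-dependent kinases phosphorylate them. J774.1 cells divide in culture without added growth factor, so such genes are transcribed in untreated cells.

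Total exon reads were 35671457 to 53099804 per library. The 54 genes held 0.763% to 0.795% of them in Rictor-KO, 0.743% to 0.766% in GATA3-KO, 0.675% and 0.716% in WT with isorhamnetin, and 0.456% and 0.418% in WT with DMSO. No member had fewer than 521 exon reads in any library. CPM is a read count scaled to library size and TMM factor, except for the cell type markers, where it is scaled to total exon reads alone. Of 12 macrophage markers, 11 were above 1 CPM in every library, and Mertk was not. Of 8 T lymphocyte markers 4 (Cd3e, Cd3g, Cd8a and Trac) had no read, while Lck had 1.34 to 4.33 CPM and Cd28 up to 2.10 CPM. Of 6 B lymphocyte markers 2 had no read and Cd79b reached 1.43 CPM, and the sums of 7 fibroblast and 6 epithelial markers were at most 0.682 and 0.0518 CPM. Rictor had 23.0 and 23.9 CPM with isorhamnetin and 34.3 and 31.2 CPM with DMSO in Rictor-KO, 28.5 and 27.6 with isorhamnetin and 36.2 and 32.3 with DMSO in GATA3-KO, and 46.0 and 43.7 with isorhamnetin and 60.8 and 63.0 with DMSO in WT. Gata3 lay between 0.282 and 0.498 CPM in GATA3-KO, between 0.331 and 0.707 in Rictor-KO and between 0.814 and 1.60 in WT. Both genes were thus lower in every knockout library than in every WT library, and since the deleted parts are not given, these levels do not check the labels.

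Promoter sequences were searched for the letters that E2F proteins are known to bind and for the CCAAT box. RefSeq windows of 300 bases (GRCm38.p6, 250 before to 50 after the start) were available for 45 of the 54 genes, as 53 windows. The letters searched, on both strands, were TTTCCCGC, TTTGGCGC, TTTCGCGC and TTTGCCGC, and overlapping matches were each counted. They occurred in 17 of the 53 windows (32.1%), 1 window for each of 17 genes, against 474 of 11929 windows (3.97%) of tested genes and 744 of all 32851 windows (2.26%). CCAAT occurred in 30 of the 53 windows (56.6%), against 38.5% of windows of tested genes. The stretches below are shown because they span the kinds of response described below. They are the 200 bases before the RefSeq start, read 5′ to 3′ on the gene's strand, with the E2F letters or their reverse complement in capitals. Gins3 and Dtl rose with isorhamnetin in WT, Cdc6 and Uhrf1 rose in WT and fell in GATA3-KO, Rfc3 rose in WT and in GATA3-KO, and Orc1 passed the test in none of the 3 genotypes.
Gins3: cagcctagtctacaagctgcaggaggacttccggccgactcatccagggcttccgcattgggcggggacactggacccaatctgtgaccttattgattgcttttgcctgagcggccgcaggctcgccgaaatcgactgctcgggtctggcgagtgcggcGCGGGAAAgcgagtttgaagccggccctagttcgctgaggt
Dtl: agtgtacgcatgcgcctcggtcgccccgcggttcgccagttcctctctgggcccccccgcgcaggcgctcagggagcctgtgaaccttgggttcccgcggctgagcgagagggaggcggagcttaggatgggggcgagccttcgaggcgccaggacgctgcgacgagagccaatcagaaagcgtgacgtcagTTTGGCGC
Cdc6: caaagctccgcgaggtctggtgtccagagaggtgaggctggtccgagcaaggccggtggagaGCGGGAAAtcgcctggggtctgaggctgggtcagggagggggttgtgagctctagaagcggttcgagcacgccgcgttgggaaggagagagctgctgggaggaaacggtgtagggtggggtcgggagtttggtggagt
Uhrf1: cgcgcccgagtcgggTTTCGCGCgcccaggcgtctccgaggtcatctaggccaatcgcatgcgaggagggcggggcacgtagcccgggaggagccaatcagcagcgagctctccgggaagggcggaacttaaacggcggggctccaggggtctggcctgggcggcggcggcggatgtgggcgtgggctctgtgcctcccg
Rfc3: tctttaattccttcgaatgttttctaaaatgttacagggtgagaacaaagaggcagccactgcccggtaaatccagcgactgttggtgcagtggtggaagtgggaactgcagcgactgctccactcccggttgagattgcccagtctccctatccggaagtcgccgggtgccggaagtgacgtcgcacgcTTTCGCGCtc
Orc1: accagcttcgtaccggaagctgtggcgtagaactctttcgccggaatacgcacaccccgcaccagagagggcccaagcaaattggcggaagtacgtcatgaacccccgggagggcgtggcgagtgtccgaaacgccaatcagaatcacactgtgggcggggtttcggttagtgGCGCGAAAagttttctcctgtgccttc
These stretches are Gins3 at chr8:95633359-95633558 (+), Dtl at chr1:191575545-191575744 (-), Cdc6 at chr11:98907951-98908150 (+), Uhrf1 at chr17:56304113-56304312 (+), Rfc3 at chr5:151651209-151651408 (-) and Orc1 at chr4:108579254-108579453 (+), in GRCm38.p6. The E2F letters began 8 bases before the start in Dtl, 10 in Rfc3, 27 in Orc1, 41 in Gins3, 138 in Cdc6 and 185 in Uhrf1. RefSeq gives another start for Uhrf1, whose window at chr17:56303087-56303386 (+) held none of these letters. The 17 genes with the letters and the 28 without them had close responses in WT, with median log2 fold changes of 0.47 and 0.50. Of the 17 genes with the letters 15 rose in WT, and of the 28 without them 24 rose. The medians thus lay close together with and without the letters.

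In WT cells isorhamnetin raised nearly the whole set. Of the 54 genes 48 rose and none fell (edgeR quasi-likelihood test, Benjamini-Hochberg adjusted p under 0.05), while 19.8% of all 11808 genes tested rose and 18.3% fell, 38.1% in all. The median log2 fold change of the 54 genes was 0.51, a 1.42-fold rise, beside 0.01 over all genes tested. The largest rises were those of Tk1 and E2f2, and the 6 genes that did not pass the threshold were Mcm3, Orc1, Orc6, Prim1, Rpa3 and Slbp. In bulk RNA a larger share of cells in S phase and more of these transcripts per cell cannot be told apart. The summed macrophage markers were also lower with isorhamnetin in WT, at 7638 and 7997 CPM, against 10663 and 10780 CPM with DMSO. Lyz2, Cd14 and Csf1r reached the highest levels of these markers, at up to 5028, 2279 and 1738 CPM over the 12 libraries. The sum therefore does not give the direction of each marker, and the part of the markers in the result was not tested. Of the 48 calls, 13 were lost when a WT library was left out: those of Mcm2, Mcm4, Cdt1, Mcm10, Gins2, Rfc3, Pola1, Prim2, Pold2, Rrm1, Ccne2, Chaf1a and Uhrf1.

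**Figure D1:**
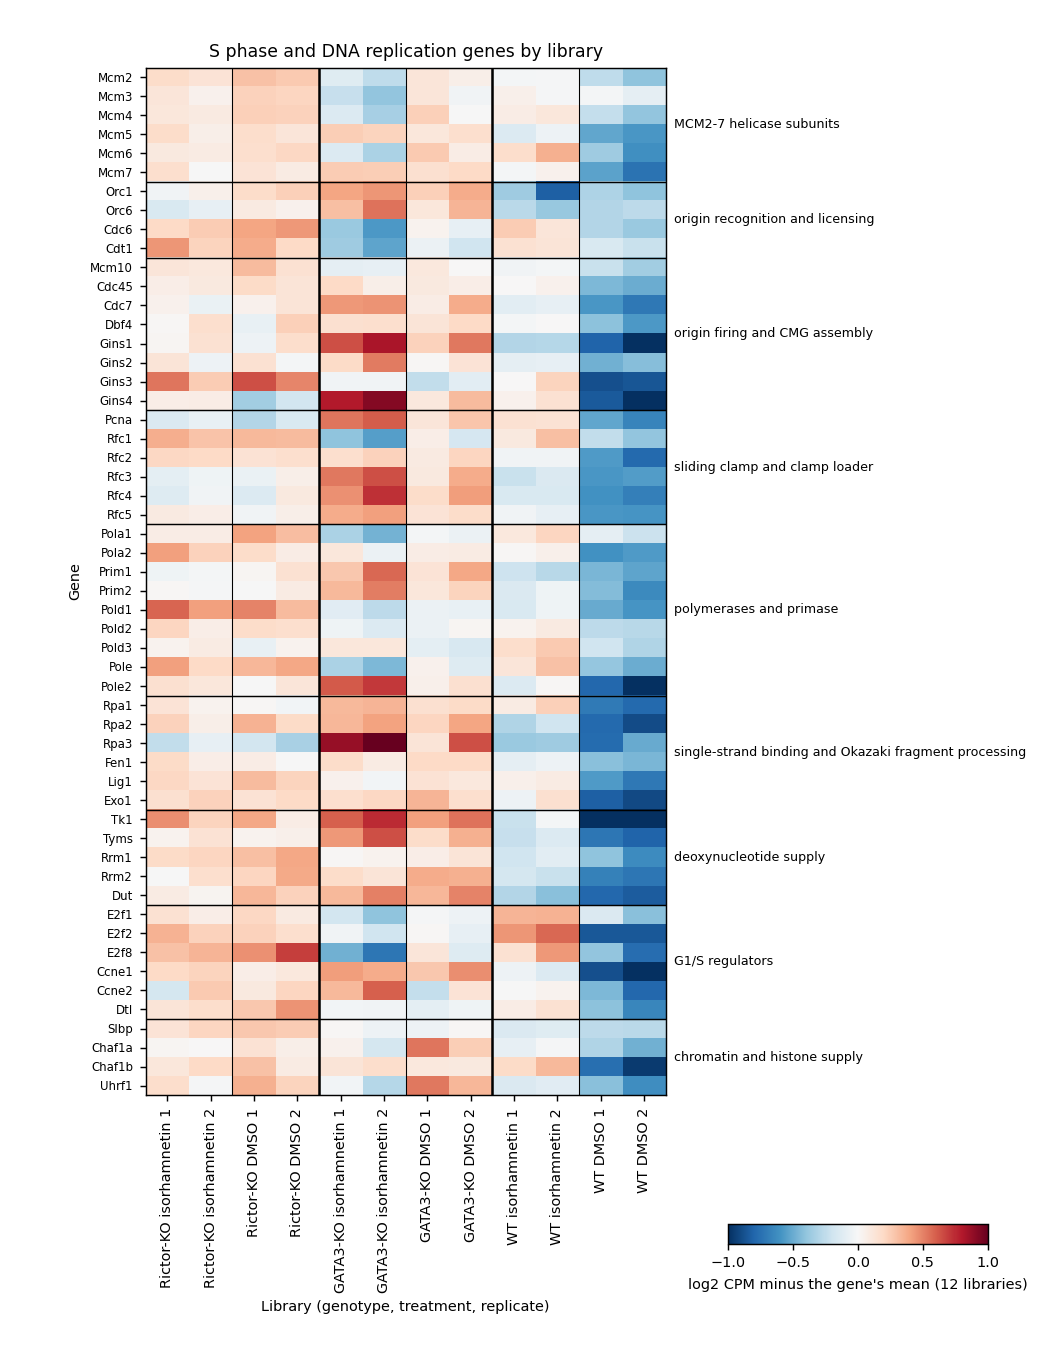
Level of the 54 genes in each of the 12 libraries, as log2 CPM minus the gene's mean over all libraries (colour, cut at -1 and 1), with genes down the page in 9 roles and libraries across, isorhamnetin before DMSO in Rictor-KO, GATA3-KO and WT. The WT DMSO columns at the right are the lowest for 42 of the 54 genes.

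The WT DMSO libraries stood below every other library for most of the set. In 42 of the 54 genes (77.8%) both WT DMSO libraries had fewer CPM than all 10 others, which held for 14.9% of all genes tested. The exceptions were Mcm2, Mcm3, Mcm4, Orc1, Orc6, Cdc6, Cdt1, Rfc1, Pola1, Pole, E2f1 and E2f8. For Orc1 and Orc6 a WT library with isorhamnetin was as low as WT with DMSO, and for the other 10 a GATA3-KO library with isorhamnetin was. The comparisons of isorhamnetin with DMSO in WT and of each knockout with WT under DMSO share these WT DMSO libraries.

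**Figure D2:**
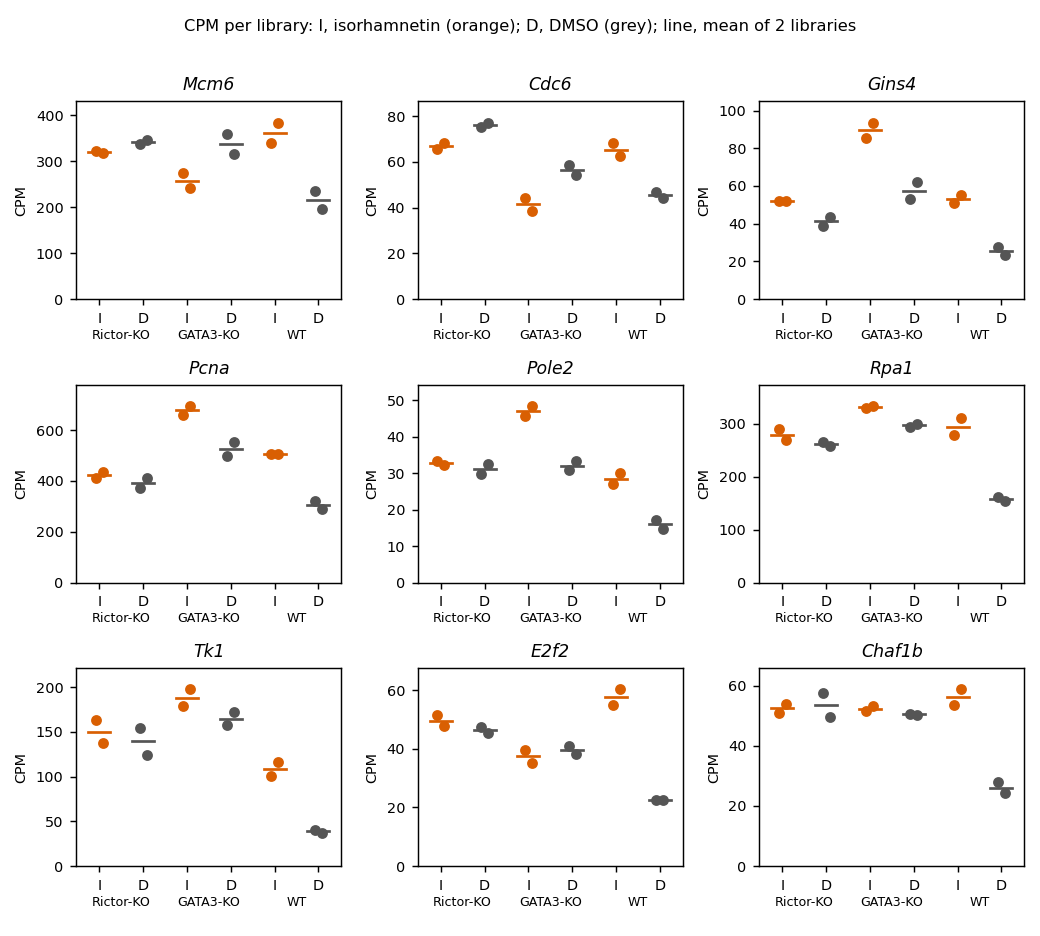
CPM of 9 genes in each library (points) with the mean of the 2 libraries of each group (lines), isorhamnetin in orange and DMSO in grey, for Rictor-KO, GATA3-KO and WT from left to right. The WT DMSO points are below all others except for Cdc6, which is as low in GATA3-KO with isorhamnetin (44.4 and 38.5 CPM).

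The MCM2-7 genes encode the ring-shaped helicase that unwinds the template, and 5 of the 6 rose in WT. Mcm6 (ENSMUSG00000026355, chr1:128331590-128359664 in GRCm38) had 340 and 384 CPM in WT with isorhamnetin, against 234 and 196 CPM with DMSO. This was a log2 fold change of 0.75 ± 0.10 (SE, n = 2 each), the largest of the 6 (edgeR, Benjamini-Hochberg adjusted p = 7.63e-05). In GATA3-KO the order was turned: Mcm6 had 273 and 241 CPM with isorhamnetin, against 359.7 and 316 CPM with DMSO, and fell by 0.39 ± 0.10 on the log2 scale (edgeR, Benjamini-Hochberg adjusted p = 0.0141). In Rictor-KO the libraries of both treatments lay close together, at 322 and 318 CPM with isorhamnetin and 337 and 347 CPM with DMSO. Mcm2, Mcm3 and Mcm4 likewise fell in GATA3-KO, by 0.28, 0.36 and 0.35 on the log2 scale, whereas Mcm5 and Mcm7 had values of 0.10 and 0.07 that did not pass. Mcm5, the member of this ring with the highest level after Mcm3 per exon length, had 349 and 369.9 CPM in WT with isorhamnetin, against 268 and 256 CPM with DMSO. Its GATA3-KO libraries, 455 and 447 CPM with isorhamnetin and 414 and 429.5 CPM with DMSO, were well above those of WT.

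Of the genes that recognise and license origins, Cdc6 and Cdt1 rose in WT, and Orc1 and Orc6 did not pass. Cdc6 (ENSMUSG00000017499, chr11:98907801-98923940), the ATPase that recruits Cdt1 and the helicase to the origin, had 68.2 and 62.4 CPM in WT with isorhamnetin, against 46.6 and 44.2 CPM with DMSO. In GATA3-KO it had 44.4 and 38.5 CPM with isorhamnetin, against 58.8 and 54.2 CPM with DMSO. The isorhamnetin libraries lay below the DMSO libraries in GATA3-KO, as for 34.6% of all genes, and above them in WT, as for 38.8%. The log2 fold changes were -0.45 ± 0.09 in GATA3-KO and 0.52 ± 0.09 in WT (edgeR, Benjamini-Hochberg adjusted p = 0.0041 and 5e-04). Cdt1, the loading factor that is destroyed in S phase, had 121 and 119 CPM in WT with isorhamnetin, against 98.1 and 93.3 CPM with DMSO, and 85.0 and 75.7 CPM in GATA3-KO with isorhamnetin, against 104.8 and 94.9 CPM with DMSO. Orc1, the largest subunit of the origin recognition complex, went the other way from the set in WT, with 29.8 and 21.7 CPM with isorhamnetin, against 30.8 and 28.9 CPM with DMSO. Its log2 fold change of -0.21 ± 0.12 did not pass (edgeR, Benjamini-Hochberg adjusted p = 0.197). Orc1 was nonetheless higher in both knockouts than in WT with DMSO, by 0.56 in Rictor-KO and 0.66 in GATA3-KO on the log2 scale.

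All 8 genes that fire origins and assemble the CMG helicase (Cdc45, MCM2-7 and GINS) rose in WT. The GINS subunits Gins4 and Gins3 led them. Gins4 (ENSMUSG00000031546, chr8:23226616-23237659) had 51.1 and 54.9 CPM in WT with isorhamnetin, against 27.7 and 23.2 CPM with DMSO. It was also the member with the largest response in Rictor-KO, where 52.0 and 52.3 CPM with isorhamnetin stood against 38.8 and 43.7 CPM with DMSO without passing (log2 fold change 0.34 ± 0.11, edgeR, Benjamini-Hochberg adjusted p = 0.168). In GATA3-KO Gins4 rose to 85.7 and 93.6 CPM with isorhamnetin, against 53.2 and 61.9 CPM with DMSO. The isorhamnetin libraries of Gins4 were thus above the DMSO libraries in each genotype. Taken singly, this held for 20.1% of all genes in Rictor-KO, 32.9% in GATA3-KO and 38.8% in WT. Gins3 had 29.4 and 34.3 CPM in WT with isorhamnetin, against 15.99 and 16.2 CPM with DMSO, and a log2 fold change of 0.98 ± 0.12 (edgeR, Benjamini-Hochberg adjusted p = 2.31e-05). In GATA3-KO it stayed between 24.8 and 28.8 CPM in all 4 libraries, and in Rictor-KO between 35.1 and 46.0 CPM. Dbf4, the activating subunit of Cdc7, had 103.6 and 105.5 CPM in WT with isorhamnetin, against 79.1 and 70.4 CPM with DMSO. Gins2 had 77.5% of its reads uniquely mapped, and its rise of 0.36 also passed on unique exon reads. The rise is uncertain because the call was lost when a WT library was left out.

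The sliding clamp PCNA, which tethers polymerases to DNA, and the 5 RFC subunits that load it all rose in WT. Pcna (ENSMUSG00000027342, chr2:132249162-132253314) was the most abundant member per exon length, with a mean of 758 TPM (a read count per exon length, scaled to the same total in each library by the authors) over the 12 libraries. It had 507 and 506 CPM in WT with isorhamnetin, against 319 and 289 CPM with DMSO, a log2 fold change of 0.73 ± 0.09 (edgeR, Benjamini-Hochberg adjusted p = 1.98e-05). In GATA3-KO it rose to 662 and 695 CPM with isorhamnetin, against 498 and 555 CPM with DMSO, and in Rictor-KO it had 413 and 434 CPM with isorhamnetin and 374 and 412 CPM with DMSO. The RFC subunits divided in GATA3-KO: Rfc3 and Rfc5 rose by 0.35 and 0.23 on the log2 scale, Rfc1, the large subunit, fell by 0.43, and Rfc2 and Rfc4 had values of 0.05 and 0.29 that did not pass. Rfc1 had 94.8 and 85.5 CPM in GATA3-KO with isorhamnetin, against 131 and 111.5 CPM with DMSO. Rfc2 had 90.4% of its reads uniquely mapped.

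Of the 9 polymerase and primase genes, 8 rose in WT and Prim1, the catalytic primase subunit, had a log2 fold change of 0.25 ± 0.11 that did not pass (edgeR, Benjamini-Hochberg adjusted p = 0.094). Pole2 (ENSMUSG00000020974, chr12:69201773-69228195), the accessory subunit of the leading strand polymerase epsilon, had 27.0 and 29.9 CPM in WT with isorhamnetin, against 17.3 and 14.6 CPM with DMSO. In GATA3-KO it had 45.6 and 48.4 CPM with isorhamnetin, against 30.8 and 33.2 CPM with DMSO. Both rises passed, at 0.55 ± 0.10 in GATA3-KO and 0.84 ± 0.11 in WT on the log2 scale (edgeR, Benjamini-Hochberg adjusted p = 0.00269 and 4.14e-05). The catalytic subunit Pole had the opposite sign in GATA3-KO: it had 60.3 and 55.1 CPM with isorhamnetin, against 77.4 and 68.9 CPM with DMSO, and fell by 0.34. Pola1, the catalytic subunit of polymerase alpha, also fell there, by 0.36. Pold1, the catalytic subunit of polymerase delta, had 98.1 and 106 CPM in WT with isorhamnetin, against 77.1 and 72.3 CPM with DMSO. Its highest values were in Rictor-KO, with 163 and 145 CPM with isorhamnetin and 154 and 136 CPM with DMSO.

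Among the genes that bind single-stranded DNA and process Okazaki fragments, 5 of 6 rose in WT. Rpa1 (ENSMUSG00000000751, chr11:75298166-75348324), the large subunit of the RPA complex, had 279 and 311 CPM in WT with isorhamnetin, against 162 and 154 CPM with DMSO. Exo1, an exonuclease of mismatch repair and end resection, had 43.5 and 50.4 CPM in WT with isorhamnetin, against 25.7 and 24.2 CPM with DMSO. These were log2 fold changes of 0.90 ± 0.08 for Rpa1 and 0.91 ± 0.10 for Exo1 (edgeR, Benjamini-Hochberg adjusted p = 1.53e-06 and 7.66e-06). The DNA ligase Lig1 rose by 0.71 and the RPA subunit Rpa2 by 0.59. Rpa3, the smallest RPA subunit, did not pass in WT, with 29.5 and 30.0 CPM with isorhamnetin and 22.4 and 27.0 CPM with DMSO. In GATA3-KO it had 69.9 and 88.2 CPM with isorhamnetin, against 41.8 and 59.7 CPM with DMSO, and rose by 0.64 ± 0.16 (edgeR, Benjamini-Hochberg adjusted p = 0.0131). In that line Rpa3 was above all libraries of the other genotypes.

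All 5 genes of deoxynucleotide supply rose in WT, led by Tk1, the thymidine kinase of the salvage pathway. Tk1 (ENSMUSG00000025574, chr11:117815526-117826092) had 101 and 117 CPM in WT with isorhamnetin, against 40.3 and 37.3 CPM with DMSO, a log2 fold change of 1.49 ± 0.12 and the largest of the 54 (edgeR, Benjamini-Hochberg adjusted p = 7e-07). In Rictor-KO it had 163 and 137 CPM with isorhamnetin and 154 and 125 CPM with DMSO. In GATA3-KO it had 179 and 197 CPM with isorhamnetin and 157 and 172 CPM with DMSO. Every knockout library, treated or not, was above every WT library for Tk1. Rrm1 and Rrm2, the subunits of ribonucleotide reductase, rose by 0.36 and 0.50 on the log2 scale, and Rrm1 had 357 and 382 CPM in WT with isorhamnetin, against 311 and 266 CPM with DMSO. Rrm2 had 287 and 277 CPM in WT with isorhamnetin, against 203 and 196 CPM with DMSO. Dut, which removes dUTP, had 99.5 and 91.3 CPM in WT with isorhamnetin, against 70.8 and 68.4 CPM with DMSO, and 125 to 174 CPM in all knockout libraries. Tyms, thymidylate synthase, rose by 0.27 in GATA3-KO and by 0.58 in WT on the log2 scale.

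All 6 regulators of the G1 to S transition rose in WT. E2f2 (ENSMUSG00000018983, chr4:136172394-136196057), an activating E2F, had 54.9 and 60.3 CPM in WT with isorhamnetin, against 22.5 and 22.5 CPM with DMSO, and a log2 fold change of 1.35 ± 0.10 (edgeR, Benjamini-Hochberg adjusted p = 2.02e-07). In Rictor-KO it had 51.7 and 47.7 CPM with isorhamnetin and 47.5 and 45.6 CPM with DMSO, and in GATA3-KO 39.6 and 35.3 CPM with isorhamnetin and 40.9 and 38.2 CPM with DMSO. Unlike Tk1, E2f2 was highest in the WT libraries with isorhamnetin. Ccne1 and Ccne2 encode the E cyclins that drive the transition, and they rose in WT by 0.87 and 0.63. Ccne1 had 57.0 and 53.6 CPM in WT with isorhamnetin, against 32.1 and 28.6 CPM with DMSO. Dtl, the adaptor of the ubiquitin ligase that removes Cdt1 at PCNA, had 84.6 and 89.3 CPM in WT with isorhamnetin, against 60.4 and 51.2 CPM with DMSO. E2f8, an atypical E2F that represses E2F targets, had 71.2 and 86.7 CPM in WT with isorhamnetin, against 48.8 and 37.7 CPM with DMSO. In GATA3-KO it had 46.0 and 38.9 CPM with isorhamnetin, against 69.6 and 58.7 CPM with DMSO, and its fall of 0.59, with that of Uhrf1, was the largest of the 54 in that line.

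Of the 4 genes that assemble chromatin behind the fork, 3 rose in WT, and Slbp, which binds histone messages, had a value of 0.13 ± 0.07 that did not pass. Chaf1b (ENSMUSG00000022945, chr16:93883901-93906115), a subunit of the CAF-1 histone chaperone, had 53.5 and 58.7 CPM in WT with isorhamnetin, against 27.8 and 24.2 CPM with DMSO, and a log2 fold change of 1.11 ± 0.10 (edgeR, Benjamini-Hochberg adjusted p = 1.79e-06). All 8 knockout libraries had between 49.7 and 57.5 CPM. Its partner Chaf1a, with 90.8% of reads uniquely mapped, had 115 and 121 CPM in WT with isorhamnetin, against 98.9 and 86.9 CPM with DMSO. Uhrf1, which brings maintenance DNA methylation to the fork, had 249.7 and 254 CPM in WT with isorhamnetin, against 206 and 179 CPM with DMSO. Both fell in GATA3-KO, where Uhrf1 had 270.2 and 226 CPM with isorhamnetin, against 398 and 347 CPM with DMSO.

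**Figure D3:**
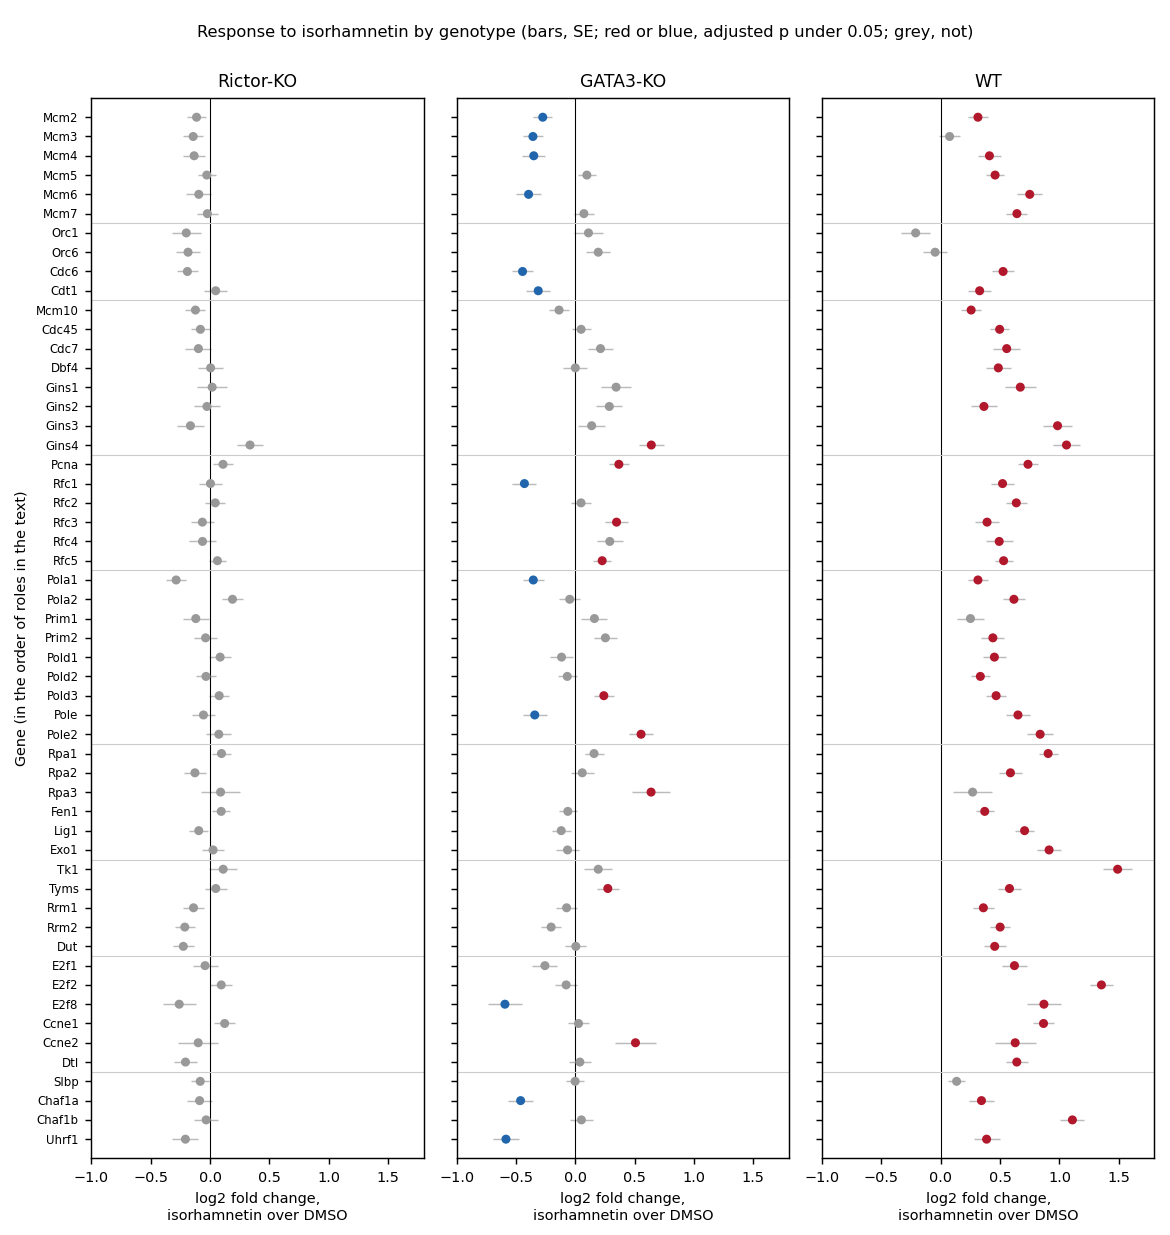
Log2 fold change of isorhamnetin over DMSO for each of the 54 genes (points, with SE as bars) in Rictor-KO, GATA3-KO and WT, in red or blue where edgeR's Benjamini-Hochberg adjusted p was under 0.05. In WT 48 points are red, in Rictor-KO none is coloured, and in GATA3-KO 9 are red and 12 blue.

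In Rictor-KO cells none of the 54 genes passed the threshold in either direction, while 1.43% of all genes rose and 0.483% fell, 1.91% in all. The median log2 fold change of the 54 genes was -0.05 and the range ran from -0.29 for Pola1 to 0.34 for Gins4. At an unadjusted p under 0.05 in edgeR, 1 gene was higher and 4 were lower, while 1616 of all 11808 genes differed in either direction. DESeq2 called 1 of the 54, lower, and 424 of all genes (3.59%). In GATA3-KO cells 9 genes rose and 12 fell, while 10.2% of all genes rose and 15.9% fell (26.2% in all), and the median of the set was 0.03. The 9 that rose were Gins4, Pcna, Rfc3, Rfc5, Pold3, Pole2, Rpa3, Tyms and Ccne2. The 12 that fell were Mcm2, Mcm3, Mcm4, Mcm6, Cdc6, Cdt1, Rfc1, Pola1, Pole, E2f8, Chaf1a and Uhrf1. These calls depended on single libraries, since 2 genes, Gins4 and Pole2, passed without replicate 2 of GATA3-KO with isorhamnetin or without replicate 1 of GATA3-KO with DMSO. With the GATA3-KO groups fitted alone 13 passed.

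Set side by side over the 3 genotypes, 29 genes rose in WT and passed in neither knockout, among them Tk1, E2f2, Chaf1b, Gins3, Rpa1, Exo1, Lig1 and Ccne1. A further 11 rose in WT and fell in GATA3-KO, and 8 rose in both. Mcm3 fell and Rpa3 rose in GATA3-KO without passing in WT, and Orc1, Orc6, Prim1 and Slbp passed in none of the genotypes.

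The difference between responses was tested directly. Subtracting the WT response from the Rictor-KO response gave values below 0 for 42 genes and above 0 for none, while 6.65% of all genes were above 0 and 7.11% below, 13.8% in all. The median of this difference over the 54 genes was -0.58, beside -0.0051 over all genes. The largest were those of Tk1 at -1.38 ± 0.17, E2f2 at -1.26 ± 0.13, Gins3 at -1.15 ± 0.17 and Chaf1b at -1.14 ± 0.14, all log2 differences (edgeR, Benjamini-Hochberg adjusted p = 1.7e-04, 8.04e-05, 5.58e-04 and 1.87e-04). Subtracting it from the GATA3-KO response gave values below 0 for 38 genes and above 0 for none, while 12.4% of all genes were above and 15.5% below, 28% in all. Here E2f8 at -1.46 ± 0.20, E2f2 at -1.43 ± 0.13, Tk1 at -1.30 ± 0.17, Mcm6 at -1.14 ± 0.15 and Chaf1b at -1.06 ± 0.14 were the largest (edgeR, Benjamini-Hochberg adjusted p = 3.03e-04, 2.21e-05, 1.45e-04, 1.45e-04 and 1.73e-04). Of the 9 genes that rose in GATA3-KO, Pcna at -0.37 and Rfc5 at -0.30 passed in this difference. The other 7 did not, with Gins4 at -0.42, Tyms at -0.31, Pole2 at -0.28, Pold3 at -0.23, Ccne2 at -0.12, Rfc3 at -0.04 and Rpa3 at 0.37. The 42 became 23 without replicate 2 of WT with DMSO and 25 without replicate 2 of WT with isorhamnetin. Between GATA3-KO and Rictor-KO no member's response passed and none of all genes did in edgeR (0%), although 233 of all genes passed without the filter on low counts. At an unadjusted p under 0.05 in edgeR, 7 members were above 0 and 4 below, as were 2711 of all genes in either direction, and DESeq2 called 3 members and 1054 of all genes.

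With DMSO alone the set was higher in both knockout lines than in WT. In Rictor-KO 53 of the 54 genes were higher than in WT and none was lower, while 19.3% of all genes were higher and 20.7% lower, 40% in all. The median log2 difference was 0.70, a 1.62-fold higher level, and Rpa3 at 0.38 ± 0.17 did not pass (edgeR, Benjamini-Hochberg adjusted p = 0.0869). In GATA3-KO 49 genes were higher than in WT and none was lower, while 26.8% of all genes were higher and 27.1% lower (53.9% in all), and the median was 0.69. The 5 that did not pass were Mcm3, Cdt1, Pola1, Pold3 and E2f1. Tk1 differed most in both, by 1.84 ± 0.12 in Rictor-KO and 2.09 ± 0.12 in GATA3-KO (edgeR, Benjamini-Hochberg adjusted p = 7.87e-08 and 1.99e-08). Rictor-KO was next highest for Gins3 at 1.44, E2f8 at 1.15, Rpa2 at 1.11 and Dut at 1.09, and GATA3-KO for Gins1 at 1.35, Ccne1 at 1.33, Dut at 1.23 and Gins4 at 1.18. The macrophage markers summed to 3844 and 6302 CPM in Rictor-KO with DMSO and to 3704 and 3950 CPM in GATA3-KO with DMSO. In WT with DMSO they summed to 10663 and 10780 CPM. These sums, in which Lyz2 alone ranged from 190 to 5028 CPM over the 12 libraries, do not give the direction of each marker. The part of the markers in the result was not tested. Mitochondrial transcripts took 0.46% to 0.61% of exon reads in GATA3-KO and 0.85% to 1.23% in the other genotypes.

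Between the knockout lines, the share of the set that was called lay near that of all genes. In GATA3-KO with DMSO 6 genes were higher and 11 lower than in Rictor-KO with DMSO, while 15.4% of all genes were higher and 14.7% lower, 30.1% in all. Rpa3, Gins4 and Pcna were higher, by 0.66, 0.48 and 0.42 on the log2 scale, and Gins3, E2f8, Pold1 and Cdc6 were lower, by 0.74, 0.58, 0.48 and 0.44 on that scale. The 17 calls became 8 without replicate 2 of GATA3-KO with DMSO.

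With isorhamnetin the gap between the genotypes was small in Rictor-KO and mixed in GATA3-KO. In Rictor-KO 11 genes were higher and Pcna was lower than in WT with isorhamnetin, while 9.36% of all genes were higher and 12.7% lower, 22% in all. The median was 0.13, and Pold1 at 0.59, Orc1 at 0.58, Tk1 at 0.47 and Dut at 0.42 led. These 12 calls became 3 without replicate 1 of WT with isorhamnetin, 5 without its replicate 2 and 6 without replicate 1 of Rictor-KO with isorhamnetin. In GATA3-KO 25 genes were higher and 11 lower than in WT with isorhamnetin, while 29.6% of all genes were higher and 32.1% lower, 61.6% in all. The highest were Rpa3 at 1.41, Gins1 at 1.02 and Orc1 at 0.99, and the lowest were E2f8 at -0.89, Rfc1 at -0.68, Cdc6 at -0.66, E2f1 at -0.63 and E2f2 at -0.62.

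Intron reads, which come largely from unspliced transcripts, gave a separate set of reads for the same genes. All 54 genes were among the 11450 tested on introns. In WT 23 rose and none fell with isorhamnetin, while 7.43% of all genes rose and 7.29% fell on intron reads, and the median of the set was 0.58. In 49 of the 54 genes introns and exons had the same sign, and 21 genes passed on both. Tk1 had 645 and 754 intron reads in WT with isorhamnetin, against 296 and 357 with DMSO, a log2 fold change of 1.18 ± 0.16 (edgeR, Benjamini-Hochberg adjusted p = 9.38e-07). E2f2 had 182 and 171 intron reads in WT with isorhamnetin, against 66 and 55 with DMSO, a log2 fold change of 1.61 ± 0.24 (edgeR, Benjamini-Hochberg adjusted p = 5.71e-06). Prim1 and Rpa3, which did not pass on exons in WT, passed on introns at 0.74 ± 0.16 and 1.49 ± 0.38 (edgeR, Benjamini-Hochberg adjusted p = 8.91e-04 and 0.00508). Rpa3 rests on 54 and 65 intron reads with isorhamnetin, against 19 and 26 with DMSO, and Gins2, with the largest intron change of 2.36 ± 0.48, on 36 and 93 with isorhamnetin, against 8 and 19 with DMSO. In Rictor-KO no gene passed on introns, while 0.41% of all genes rose and 0.114% fell, and at an unadjusted p under 0.05 in edgeR none was higher and 2 were lower. In GATA3-KO Prim1 alone passed, at 0.57 ± 0.15, while 0.437% of all genes rose and 1.16% fell. The 23 intron calls in WT became 11 without replicate 2 of WT with DMSO and 13 without replicate 2 of WT with isorhamnetin.

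**Figure D4:**
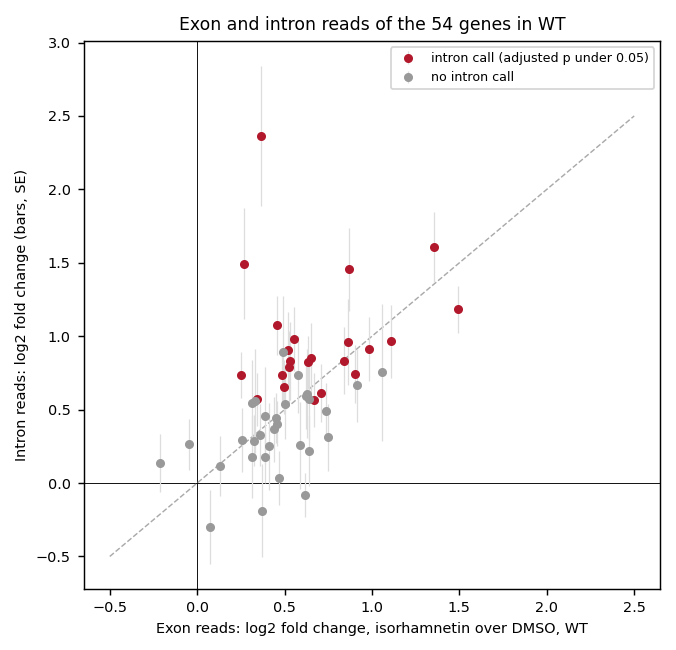
Log2 fold change of isorhamnetin over DMSO in WT for the 54 genes on exon reads (horizontal axis) and on intron reads (vertical axis, with SE as bars), with the line of equal change dashed and genes past the threshold on introns in red. The 23 red points lie above 0 on both axes, and Gins2, at 2.36 on introns, is the highest.

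The members that rose and those that fell in GATA3-KO differed in exon length. The 9 that rose had a median exon length of 1706 bases (670 to 3920) and the 12 that fell 4128 bases (2189 to 7423). The same held over all genes, with medians of 2563 bases for genes that rose and 4954 for genes that fell in GATA3-KO. Across the 54 genes Spearman's rho of log2 fold change with exon length was -0.57 in GATA3-KO and 0.09 in WT, and over all 11808 genes it was -0.30 and 0.05. This is a description across genes, which share their libraries and are not independent. GC content, taken from the longest GENCODE M21 transcript of each gene, also differed, at medians of 45.3% in the 9 that rose and 50.4% in the 12 that fell. Over all genes the medians lay likewise, at 46.9% for genes that rose and 51.1% for genes that fell. The part of length and GC content in the GATA3-KO result was not tested.

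**Figure D5:**
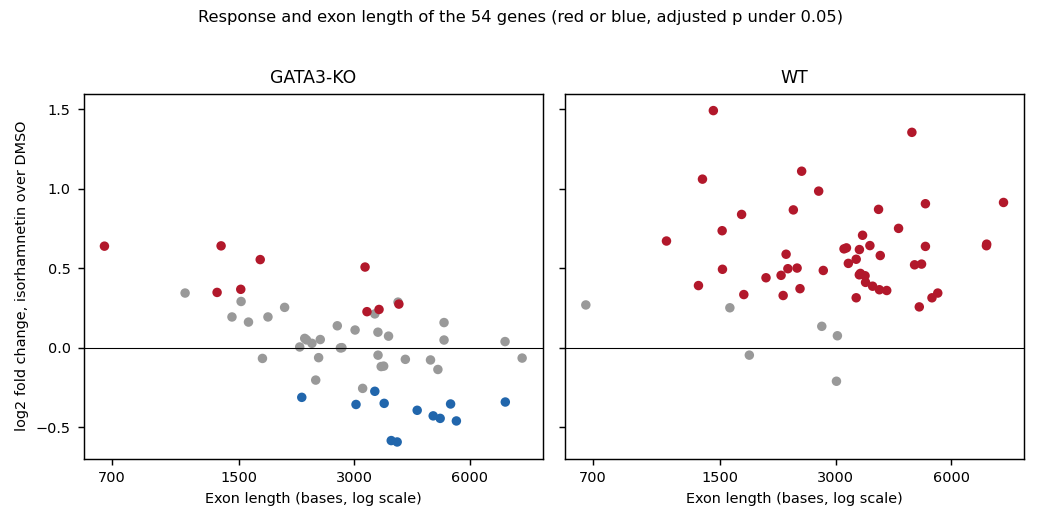
Log2 fold change of isorhamnetin over DMSO against exon length in bases (log scale) for the 54 genes in GATA3-KO and WT, in red or blue where edgeR's Benjamini-Hochberg adjusted p was under 0.05. In GATA3-KO the 9 red points lie at 670 to 3920 bases and the 12 blue points at 2189 to 7423 bases, and in WT the red points lie at 1087 to 8212 bases.

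Per exon length the set spanned a wide range of abundance. After Pcna, the most abundant genes by mean TPM over the 12 libraries were Rrm2 at 344, Mcm3 at 304, Mcm5 at 277, Rrm1 at 254 and Tk1 at 224. The least abundant were Exo1 at 14.005, Cdc7 at 21.8 and E2f2 at 22.2. The group mean of Tk1 was 290 TPM in GATA3-KO with isorhamnetin, its highest, against 61.7 TPM in WT with DMSO, its lowest.

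Other genes of the same pathways gave the following counts in the same fits, beside the shares of all genes given above. Of 35 other origin and fork genes 22 rose and 2 fell with isorhamnetin in WT, with a median of 0.38. Gmnn, the inhibitor of Cdt1, had 65.8 and 75.02 CPM in WT with isorhamnetin, against 31.3 and 30.9 CPM with DMSO. Of 30 genes of the S phase checkpoint and homologous recombination 20 rose and 1 fell, with a median of 0.56. Fanca rose by 1.37 and Brca1 by 0.91, both genes of DNA crosslink and break repair. Of 22 regulators of the E2F, RB and cyclin network 12 rose and none fell. Tfdp2, a partner subunit of E2F, led with 23.1 and 29.7 CPM in WT with isorhamnetin, against 7.14 and 5.62 CPM with DMSO, and Fbxo5, an inhibitor of the anaphase-promoting complex, rose by 1.05. Of 30 genes of G2/M and mitosis 20 rose and none fell, with a median of 0.41, and Foxm1 and Aurkb rose by 0.95 and 0.66.

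Of 27 other genes of nucleotide synthesis 3 rose and 4 fell with isorhamnetin in WT, and the median of -0.06 lay near that of all genes. Nme1, a nucleoside diphosphate kinase, fell by 0.64 on the log2 scale. Of 13 tested histone chaperone and histone gene factors 3 rose and Daxx fell, with 46.2 and 42.8 CPM in WT with isorhamnetin, against 131 and 138 CPM with DMSO. Asf1b, a chaperone of new histones at the fork, rose by 0.59. Of 4 tested inhibitors of cyclin-dependent kinases 2 rose and 1 fell in WT. Cdkn1a, which encodes p21, had 153 and 117 CPM in WT with isorhamnetin, against 330 and 315 CPM with DMSO, and fell by 1.26 ± 0.13 on the log2 scale (edgeR, Benjamini-Hochberg adjusted p = 1.15e-05). In Rictor-KO it had 164 and 145 CPM with isorhamnetin and 201 and 156 CPM with DMSO, close to WT with isorhamnetin, and in GATA3-KO 283 and 254 CPM with isorhamnetin and 365 and 363 CPM with DMSO. Cdkn2c, which encodes p18, rose by 1.05 in WT.

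In Rictor-KO none of the 161 tested genes of these lists passed with isorhamnetin in edgeR, while 1.91% of all genes did. At an unadjusted p under 0.05 in edgeR 6 of the 161 were higher and 17 lower, while 1616 of all 11808 genes differed in either direction. In GATA3-KO 6 of the 35 other origin and fork genes rose and 8 fell, and of the 30 G2/M genes 2 rose and 11 fell. Of all genes 10.2% rose and 15.9% fell there. With DMSO, the G2/M list was higher in Rictor-KO than in WT for all 30 genes, and in GATA3-KO for 23, with 3 lower. The other origin and fork genes were higher than in WT for 22 in Rictor-KO and 25 in GATA3-KO, with 2 lower in each. Of all genes with DMSO, 19.3% were higher and 20.7% lower in Rictor-KO than in WT, and 26.8% and 27.1% in GATA3-KO.

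In the authors' deposited tables of isorhamnetin against DMSO, 49 of the 54 genes had a false discovery rate under 0.05 and a higher level in WT, none in Rictor-KO, and 7 higher and 10 lower in GATA3-KO. All 48 genes called here in WT and 16 of the 21 in GATA3-KO were among the calls of the authors' deposited tables. Log2 fold changes differed from those of the authors' deposited tables by at most 0.022.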

How the data were processed

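RNA of J774.1 cells was sequenced with Illumina library protocols, per the labels. For each of the 12 libraries the authors' deposited files give raw counts of exon, intron and uniquely mapped exon reads per gene, and TPM per gene, scaled by the authors to exon length and to a common total. The genome was GRCm38, per the submitters' processing notes. For the aligner, the counting program and its use of strand, no name is given in the sources used here. Among values of 1 to 4 exon reads 81.3% were even. The authors' deposited comparison tables hold a log2 fold change and an adjusted p-value (false discovery rate) per gene, from an unnamed test, and were only described.

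Exon counts were fitted with edgeR 4.0.16 in R 4.3.3. Genes passed filterByExpr (11808 of 15156 with a read) and libraries were scaled with TMM (factors 0.912 and 0.913 for WT with DMSO, 0.992 to 1.05 for the others). Each of the 6 groups had a mean of its own in 1 fit over all libraries, tested with the robust quasi-likelihood F test (6 residual degrees of freedom, prior median 8.08). The Benjamini-Hochberg method adjusted p over all genes, contrast by contrast (11 in all), with 0.05 as the limit for "rose", "fell", "higher" and "lower". Intron counts were fitted alike. CPM carry the TMM scaling, except those of the cell type markers and their sums, which are scaled to total exon reads alone. The fit was tested on simulated data for isorhamnetin against DMSO in WT. It recovered 65 of 100 simulated 1.5-fold changes and 91 of 100 simulated 2-fold changes, with 11 false among 167 calls. Values after ± are SEs from the edgeR fit, and no counting error of single values is given.

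The 54 genes, their roles and the other lists were chosen with earlier results of these data known. Named by rule were, in each role, the gene with the largest rise in WT and the gene with the highest CPM. Up to 5 genes by smallest p were named in each knockout response, each knockout-minus-WT response difference and each knockout against WT with DMSO. Also named were every gene called against the majority of a response and up to 2 genes of each other list. Other named genes were chosen after their values were seen. H2afx and H2afz of the histone list go by other names in the tables and were not used, and Cdkn1c, Cdkn2a and Cdkn2b did not pass the filter. Alternatives were RLE scaling, library totals, no filter, DESeq2 1.42.0, the compared groups alone, a replicate block, unique exon reads and leaving out each library. Some genes of the lists are not reported here by name.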

Additional observations from a re-analysis of the deposited data

Results flagged for a closer look

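The responses to isorhamnetin differed between genotypes by a test of the difference itself. Subtracting the WT response from the Rictor-KO response, 42 of the 54 genes passed, all below 0 (edgeR's quasi-likelihood test, Benjamini-Hochberg adjusted p under 0.05). The genes with the smallest p were E2f2 at -1.26, Tk1 at -1.38, Chaf1b at -1.14, Lig1 at -0.80 and Rpa1 at -0.81 on the log2 scale. Subtracting the WT response from the GATA3-KO response, 38 passed, all below 0. The genes with the smallest p were E2f2 at -1.43, Mcm6 at -1.14, Tk1 at -1.30, Chaf1b at -1.06 and Cdc6 at -0.97. Both differences use the same 4 WT libraries, among them the WT DMSO libraries, both of which lay below all 10 others for 42 of the 54 genes. Groups of 2 libraries are too small for a check of outlying samples.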

How the results depend on the processing

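None of the 316 calls of a gene in a comparison changed direction under the settings tried. Several near-zero medians of all genes did. With RLE scaling they went to -0.0030 in WT, beside 0.01, and to 0.0051 for Rictor-KO minus WT, beside -0.0051. RLE scaling and DESeq2 also turned those of GATA3-KO against WT with DMSO and of Rictor-KO against WT with isorhamnetin. Library totals alone turned others, such as that of Rictor-KO against WT with DMSO, to 0.152. Counts of the 54 genes called stayed within 1.5 times the main count except as follows. In Rictor-KO isorhamnetin gave no call, 1 with DESeq2 and 6 with a replicate block. In GATA3-KO it gave 21 calls and 13 with the compared groups fitted alone, an estimate of spread that rests on 4 libraries. The difference between the responses of GATA3-KO and Rictor-KO gave no call, 3 with DESeq2 and 19 with a replicate block, which also called 3173 of all genes (26.9%). The labels do not say whether replicate numbers pair the libraries. Same-numbered deviations correlated over all genes at 0.702 in Rictor-KO, 0.368 in GATA3-KO and -0.053 in WT, and over the 54 genes at 0.582, 0.827 and -0.22. As the correlation was not above 0.1 in each genotype, the numbers were not taken as pairs. The value in WT does not show that the libraries of the knockout lines are unpaired. The block moved the counts in WT to 51 and in GATA3-KO to 31, and called 52.6% and 43.8% of all genes there. Leaving out each library in turn gave 37 to 48 calls in WT and 2 to 23 in GATA3-KO, 23 to 43 for the Rictor-KO minus WT and 26 to 39 for the GATA3-KO minus WT response, and 0 to 5 for GATA3-KO minus Rictor-KO. It gave 8 to 17 for GATA3-KO against Rictor-KO with DMSO, 3 to 13 for Rictor-KO against WT with isorhamnetin, and, on intron reads, 11 to 24 in WT and 0 to 1 in GATA3-KO. The causes were not tested. Scaling by library totals alone moved the median of all genes by 0.159 in WT, -0.123 and -0.140 in the differences from WT, and 0.161 and 0.126 in Rictor-KO and GATA3-KO against WT with DMSO. The median of the 54 genes exceeded these shifts. With 2 libraries a group, a change that does not pass is not shown to be absent.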
